A study of Homo sapiens with 6 samples.

Results

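The genes described here encode the proteins of the cytosolic ribosome, together with their close paralogs, in H226 cells, an established line of human squamous lung carcinoma. They were taken by name: every row called *RPL*, *RPS* or *RPLP* followed by a number and, at most, one of the endings A, X, L, L1 or AL, and *RPSA*. This gave 85 of the 17222 gene rows of the table. Of these, 77 are core ribosomal proteins, with 43 of the large subunit outside the stalk, 3 of the stalk and 31 of the small subunit, and 8 are rows with an L, L1 or AL ending. All 85 were among the 14660 genes with enough reads to be tested. The cells had been transiently transfected either with ASO_LINC#3, an antisense oligonucleotide directed against the long noncoding RNA *SWINGN*, or with the control oligonucleotide ASO_CTRL, and were collected 48 h later. There were 3 libraries of each, primed with oligo-dT. The comparison asks which transcripts change when *SWINGN* is depleted. It rests on a single targeting oligonucleotide in a single cell line, and the labels do not say whether the replicates came from separate cultures, so that p-values measure the spread between these libraries. The paragraph of the study's methods on RNA-seq speaks of BJ fibroblasts, whereas the sample labels give H226. *SWINGN* itself was not analysed here, so the depletion is taken from the labels.

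The cytosolic ribosome is built from ribosomal RNA and a fixed set of proteins, most of which are needed in equal number and are made from very abundant, short mRNAs. These mRNAs typically start with a C followed by an uninterrupted stretch of pyrimidines, the 5′ terminal oligopyrimidine (TOP) motif, through which mTORC1 and LARP1 control their translation together. Several proteins have a second gene that encodes a near copy, marked L or L1, and ribosomal protein mRNAs have also left many processed pseudogenes in the human genome.

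The annotated starts show how far the core genes and the paralogs share this motif, and are given for the genes that were called below and for *RPS27L*, *RPL36AL*, *RPL26L1*, *RPL39L* and *RPL22L1*, each beside its core counterpart. Each line holds 30 bases of GRCh37, 5′ to 3′ on the strand of the gene, of which 10 precede the first base of the canonical transcript and 20 begin with it. Capitals mark the pyrimidine run that begins at the first base.
RPS13 (chr11:17099195-17099224, minus strand): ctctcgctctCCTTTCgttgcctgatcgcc
RPS7 (chr2:3622840-3622869, plus strand): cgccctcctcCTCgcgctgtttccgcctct
RPS27 (chr1:153963228-153963257, plus strand): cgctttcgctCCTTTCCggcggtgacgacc
RPS27L (chr15:63449657-63449686, minus strand): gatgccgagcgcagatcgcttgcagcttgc
RPL36A (chrX:100645989-100646018, plus strand): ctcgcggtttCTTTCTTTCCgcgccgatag
RPL36AL (chr14:50087325-50087354, minus strand): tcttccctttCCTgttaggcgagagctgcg
RPL26 (chr17:8286492-8286521, minus strand): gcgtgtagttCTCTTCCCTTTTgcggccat
RPL26L1 (chr5:172386417-172386446, plus strand): acggaaactcacttccggccctgcgcactc
RPL39 (chrX:118925574-118925603, minus strand): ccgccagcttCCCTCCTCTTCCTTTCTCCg
RPL39L (chr3:186857265-186857294, minus strand): cggggaaatcgcggtcttagcatccggcgc
RPL22 (chr1:6259636-6259665, minus strand): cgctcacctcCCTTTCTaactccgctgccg
RPL22L1 (chr3:170587965-170587994, minus strand): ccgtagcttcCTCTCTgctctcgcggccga

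A start was counted as TOP-like when its first base was C and at least 5 pyrimidines followed one another from there. By this measure 58 of the 77 core genes, or 75.3%, had a TOP-like start, compared with 1 of the 6 paralogs with a start of their own (16.7%), which was *RPL22L1*. Among all annotated protein-coding genes the share was 4.59%. *RPS13* holds a run of 6 pyrimidines, whereas the run of *RPS7* ends after 3. An annotated first base is not always the base at which transcription starts, so a missing run says only that these letters are not at this position.

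Reads on genes numbered from 3686828 to 10546786 per library, fewest in ASO_LINC replicate 3. Of the reads of the table, 24.84%, 26.33% and 25.11% fell on no gene in ASO_CTRL replicates 1 to 3. In ASO_LINC these values were all higher, at 28.03%, 28.08% and 27.95%. Core ribosomal protein genes took 10.2%, 9.72% and 10.1% of the reads on genes in the libraries of ASO_CTRL (replicates 1 to 3, in this order here and below) and 9.20%, 9.35% and 9.15% in those of ASO_LINC. A further 306 rows carry the name of a pseudogene of 66 of these genes and held 5.56% to 5.88% of the reads in ASO_CTRL and 4.92% to 5.2% in ASO_LINC. For 24 of the 66 genes, the gene row held under 50% of the reads of the gene and its pseudogene rows together. How a read that matches several places was counted is not given in the sources used here, so a fold change of such a gene described below is also given for the sum. For the marker genes of this paragraph, CPM are read counts scaled to the same total over genes in every library, and all other CPM use edgeR's TMM scaling. Of the 8 squamous markers listed, *KRT5* was at 63.0 to 119 CPM, *PERP* at 165 to 210 CPM and *KRT6A* at 0 to 2.06 CPM. These 3 summed to 257 to 295 CPM in ASO_CTRL and 251 to 274 CPM in ASO_LINC. No counts were at hand for *TP63*, *KRT14*, *SOX2*, *DSG3* and *PKP1*, so their levels are unknown here. The 4 mesothelial markers summed to 630 to 844 CPM in ASO_CTRL and to 210 to 323 CPM in ASO_LINC, with calretinin (*CALB2*) at 119 to 707 CPM. The 3 fibroblast markers with counts, of 7 listed, summed to 402 to 491 CPM in ASO_CTRL and to 223 to 254 CPM in ASO_LINC. The 4 markers of simple epithelium with counts, of 6 listed, summed to 11300 to 12800 CPM in ASO_CTRL and to 7140 to 12400 CPM in ASO_LINC. Counts of *EPCAM* and *CDH1* were not at hand. The part of these markers in the results below was not tested.

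Core ribosomal protein mRNAs were, as a group, slightly lower in ASO_LINC, with few single genes passing the thresholds for a call given below. The median log2 fold change of the 77 core genes was −0.14, compared with −0.003 over all 14660 genes tested, with 52 core genes (67.5%) below 0, against 50.3% of all genes tested, and 25 above. A gene was called when its adjusted p-value in edgeR's quasi-likelihood test was below 0.01 and its log2 fold change beyond 0.5. Only 2 of the 85 genes, *RPS13* and *RPS7*, were called lower, which is 2.35% and close to the 2.63% of all tested genes called lower (7.54% were called in either direction). No member was called higher by edgeR, against 4.91% of all tested genes. At an unadjusted p-value below 0.05, 3 were higher, against 17.1% of all genes, and 19 lower, against 15.3%. DESeq2 called 5 of the 85 lower and 0 higher, and of all 14660 genes 634 lower and 963 higher. The 3 libraries of ASO_LINC lay below the 3 of ASO_CTRL for 18 of the 85 genes (21.2%, against 17.3% of all tested genes) and above them for 3 (3.53%, against 18.7%). The small shift of the group showed more in the scarcity of increases than in the number of decreases. The quartiles of the log2 fold change were −0.29 and 0.03 for core genes, and −0.31 and 0.31 over all genes. All genes are not a background of equal level: their median was 17.2 CPM, against 938 CPM for core genes. The part of level in this comparison was not tested. The median depended on the libraries and on GC content: it was −0.07 without ASO_CTRL replicate 1, and −0.09, against −0.03 over all genes, after a correction for GC content and length. The share of reads on core genes lay below the range of ASO_CTRL in each ASO_LINC library, with means of 10.01% ± 0.252 (SD, n = 3) and 9.23% ± 0.103 (SD, n = 3), and an exact permutation test of 3 against 3 libraries cannot give a p-value below 0.10. Fewer ribosomal protein mRNAs per cell and more RNA of other genes per cell cannot be told apart in these counts.

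**Figure D1:**
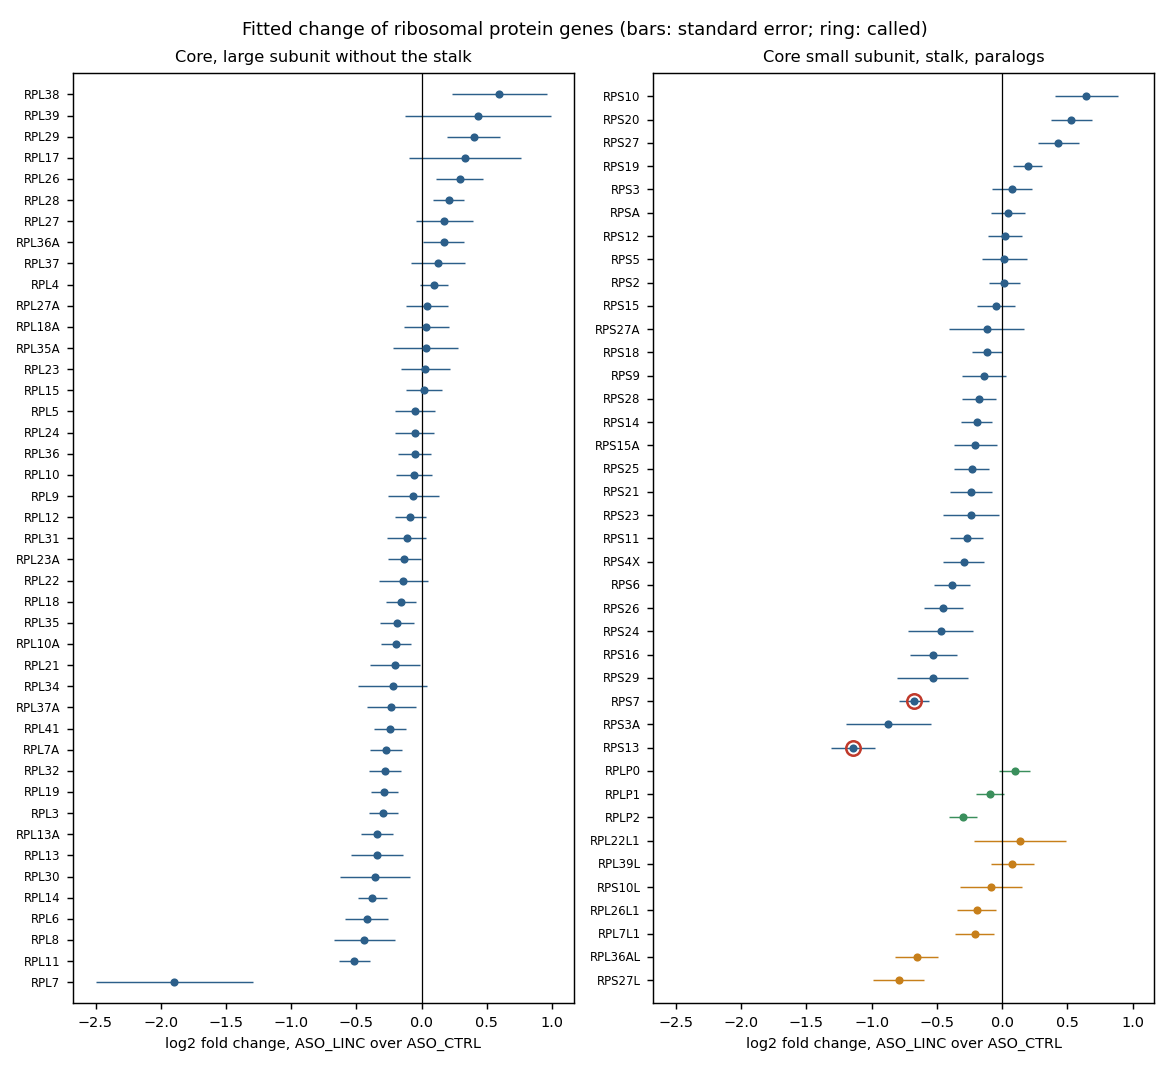
Log2 fold change (x axis) of each gene shown, with the standard error of the fit as a bar and a red ring around the 2 called genes; blue marks core proteins of the subunits, green the stalk and orange the paralogs. Most core genes sit just left of 0, and *RPS13* and *RPS7* are the only ringed genes.

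*RPS13*, a protein of the small subunit that contacts the platform region of the ribosomal RNA, fell in ASO_LINC. Its level was 890.1, 599.5 and 597.5 CPM in the ASO_CTRL libraries and 340.8, 292.8 and 312 CPM in the ASO_LINC libraries. The groups did not overlap, and ASO_CTRL replicate 1 was the highest of all. The log2 fold change was −1.14 ± 0.17 (SE), or 2.21-fold lower, with an adjusted p-value of 0.00133 in edgeR's quasi-likelihood test. No pseudogene row carries its name, and 19.2% of the 75-base windows of its transcript occur elsewhere in the genome. Leaving out any of the 6 libraries kept the call, with log2 fold changes from −1.24 to −0.92. It was not called by glmTreat, which tests against a log2 fold change bound of 0.5, with an adjusted p-value of 0.0121 in that edgeR test.

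*RPS7*, which also binds the ubiquitin ligase MDM2 and is mutated in some families with Diamond-Blackfan anemia, was called on its gene row. It was counted at 2099, 2011 and 2305 CPM in ASO_CTRL and at 1442, 1266 and 1308 CPM in ASO_LINC, again with no overlap. The log2 fold change was −0.68 ± 0.12 (SE), with an adjusted p-value of 0.00322 in edgeR. However, 55.9% of its windows occur elsewhere, and the 9 *RPS7* pseudogene rows held more reads than the gene. With these rows added, the libraries read 4611, 4148 and 4954 CPM in ASO_CTRL and 4332, 4203 and 3147 CPM in ASO_LINC, which overlap. The log2 fold change of the sum was −0.23 ± 0.14 (SE), with an adjusted p-value of 0.289 in edgeR, so the call did not hold. The call was also lost on leaving out replicate 1 or 3 of ASO_CTRL, or replicate 1 or 2 of ASO_LINC, with adjusted p-values in edgeR of 0.0118, 0.0256, 0.0141 and 0.0199, at log2 fold changes from −0.73 to −0.62.

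**Figure D2:**
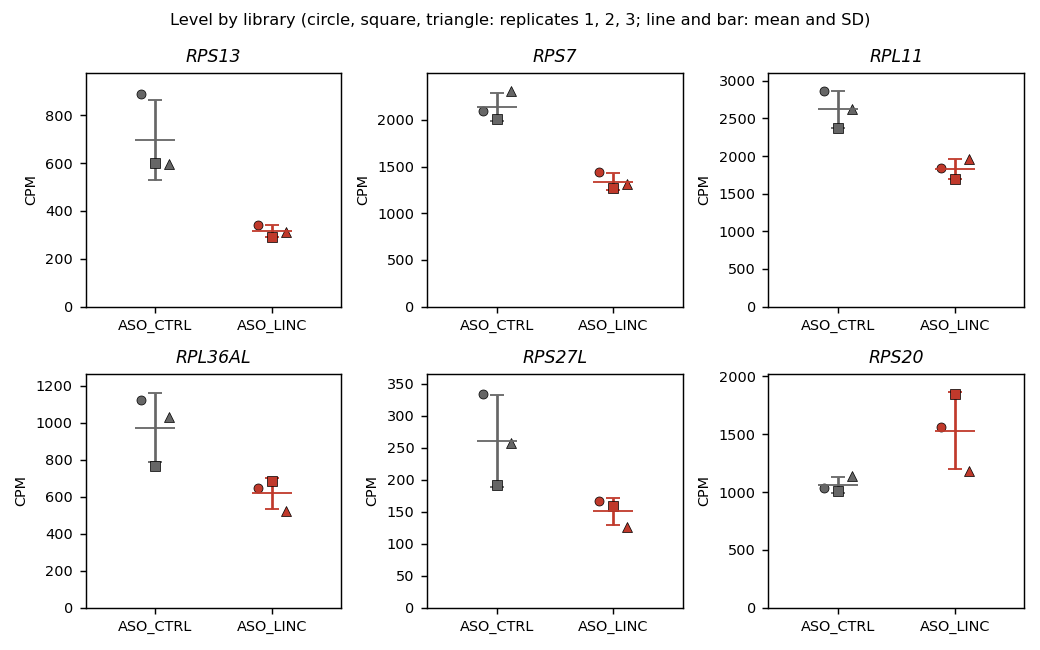
Level in CPM (y axis, from 0) of 6 genes in the 3 ASO_CTRL (grey) and 3 ASO_LINC (red) libraries, with circles, squares and triangles for replicates 1, 2 and 3 and a line and bar for the mean and SD. On these gene rows the groups do not overlap in any of the 6 panels, with *RPS13* at 292.8 to 340.8 CPM in ASO_LINC and *RPS20* the only one of them higher in ASO_LINC. With pseudogene rows added, the groups of *RPS7* and *RPS20* overlap.

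The other small-subunit proteins were not called on their gene rows. *RPS3A*, with 92.8% of its windows found elsewhere, was at 375, 118.6 and 208.2 CPM in ASO_CTRL and at 133.2, 142.4 and 107.4 CPM in ASO_LINC, with a log2 fold change of −0.87 (adjusted p = 0.0862, edgeR). *RPS29*, a zinc-binding protein of the small subunit head, was at 1287, 527.8 and 750.4 CPM and at 632.8, 674.6 and 467.1 CPM, or −0.53 on the log2 scale (adjusted p = 0.208, edgeR). In both genes ASO_CTRL replicate 1 stood far above the other control libraries, and the groups overlapped. Without that library the log2 fold change of *RPS3A* was −0.36 and that of *RPS29* −0.11. Summed with its 11 pseudogene rows, *RPS3A* had a log2 fold change of −1.02 and was not called (adjusted p = 0.0392, edgeR).

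Among the small-subunit proteins chosen for their roles, *RPS6*, the substrate of the S6 kinases, was at 2062, 1450 and 1645 CPM in ASO_CTRL and at 1293, 1275 and 1380 CPM in ASO_LINC. The ASO_LINC libraries were all below those of ASO_CTRL, and the log2 fold change of −0.39 ± 0.14 (SE) gave an adjusted p-value of 0.0813 in edgeR. *RPS19*, the gene most often mutated in Diamond-Blackfan anemia, was at 1995, 2246 and 2254 CPM and at 2429, 2643 and 2364 CPM, with all ASO_LINC libraries higher and a log2 fold change of 0.20 (adjusted p = 0.261, edgeR). Summed with its 2 pseudogene rows the value of *RPS19* was −0.03, on the other side of 0. *RPS3*, which lines the mRNA entry channel, *RPSA*, also known as the laminin receptor, and *RPS27A*, made as a fusion with ubiquitin, had log2 fold changes of 0.07, 0.04 and −0.12, with overlapping libraries. The sum with pseudogene rows was 0.006 for *RPS3* and −0.10 for *RPSA*.

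The highest fitted values of the small subunit were those of *RPS10*, *RPS20* and *RPS27*, none of them called. *RPS20*, which is part of the small subunit head, was at 1038, 1005 and 1140 CPM in ASO_CTRL and at 1563, 1844 and 1184 CPM in ASO_LINC. Its groups did not overlap, although ASO_LINC replicate 3 came close to the controls, and its log2 fold change of 0.53 ± 0.16 (SE) had an adjusted p-value of 0.0409 in edgeR. Summed with its 6 pseudogene rows, *RPS20* was at 2025, 1940 and 2351 CPM in ASO_CTRL and at 3132, 3440 and 2269 CPM in ASO_LINC. These sums overlap, with a log2 fold change of 0.49 (adjusted p = 0.0554, edgeR). At an adjusted threshold of 0.05 the gene row of *RPS20* would be the only member called higher, against 9.7% of all tested genes, and 5 members would be called lower, against 7.11%. *RPS10* was at 47.27, 53.86 and 52.56 CPM in ASO_CTRL and at 86.71, 105.6 and 46.36 CPM in ASO_LINC, so that replicates 1 and 2 were high and replicate 3 was below every control. Its row also shares sequence with the readthrough gene *RPS10-NUDT3*, and its log2 fold change of 0.65 (adjusted p = 0.0893, edgeR) became 0.22 with its 5 pseudogene rows.

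No protein of the large subunit outside the stalk was called by edgeR, while DESeq2 called *RPL11* lower. At an unadjusted p-value below 0.05 in edgeR, 9 of the 43 were lower and 0 higher, against 15.3% and 17.1% of all tested genes. *RPL11* and *RPL5*, which form a complex with 5S ribosomal RNA and can bind MDM2, differed in their values. *RPL11* was at 2859, 2366 and 2631 CPM in ASO_CTRL and at 1841, 1695 and 1957 CPM in ASO_LINC, without overlap. Its log2 fold change of −0.52 ± 0.12 (SE) had an adjusted p-value of 0.0141 in edgeR and 0.00428 in DESeq2, and with its pseudogene row it was −0.52. *RPL5* was at 886.6, 650.1 and 860.9 CPM and at 792.6, 864.7 and 655.5 CPM, with a log2 fold change of −0.05 (adjusted p = 0.852, edgeR). Added to its 17 pseudogene rows, which held more reads than the gene, *RPL5* had a log2 fold change of −0.37 (adjusted p = 0.0768, edgeR) and no overlap between the groups.

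*RPL13A*, known for the release of its protein to silence inflammatory mRNAs, was at 1937, 1976 and 1976 CPM in ASO_CTRL and at 1479, 1392 and 1776 CPM in ASO_LINC. All ASO_LINC libraries were lower, with a log2 fold change of −0.34 ± 0.12 (SE) and an adjusted p-value of 0.0768 in edgeR, and with its 7 pseudogene rows the value was −0.25 (adjusted p = 0.131, edgeR). *RPL23*, a further protein that binds MDM2, and *RPL10*, which joins the subunit late in its assembly, had log2 fold changes of 0.03 and −0.06 with overlapping libraries. *RPL7* had the lowest fitted value of all, at −1.90 ± 0.60 (SE), and was not called (adjusted p = 0.0528, edgeR). Its libraries were at 469.2, 52.31 and 161 CPM in ASO_CTRL and at 75.54, 71.88 and 34.43 CPM in ASO_LINC. ASO_CTRL replicate 1 stood far above the other controls, and ASO_CTRL replicate 2 was below 2 of the ASO_LINC libraries, so the groups overlapped. Without ASO_CTRL replicate 1 the log2 fold change of *RPL7* was −0.81, and 92.6% of its windows occur elsewhere in the genome.

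At the upper end of the large subunit, *RPL38*, known for its part in the translation of *Hox* mRNAs, was at 880.4, 442.8 and 764.9 CPM in ASO_CTRL and at 1221, 1474 and 460.1 CPM in ASO_LINC. The first 2 ASO_LINC libraries exceeded every control and the third was close to the lowest control, and the log2 fold change was 0.60 ± 0.36 (SE; adjusted p = 0.289, edgeR). *RPL39*, a very short protein of the exit tunnel, was counted at no more than 13.4 CPM in any library, with 98.3% of its windows found elsewhere. Several members had few reads in a similar way: over the 77 core genes, log2 mean CPM and the percentage of windows found elsewhere had a Pearson's r of −0.557 and a Spearman's rho of −0.406, given as a description across genes that share the same libraries. *RPL21*, with 100% of its windows copied, was at 22.23 to 37.58 CPM, and *RPL17*, which overlaps the readthrough gene *RPL17-C18orf32*, was at 0.808 to 2.44 CPM. The counts of such rows are given as counted, not as levels of the mRNA.

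The 3 proteins of the stalk, which recruits translation factors, and the other genes with the most reads either differed little or were lower in ASO_LINC without being called. *RPLP1* was at 6238, 5910 and 6430 CPM in ASO_CTRL and at 5588, 6276 and 5551 CPM in ASO_LINC, or −0.09 on the log2 scale, and *RPLP0* had a log2 fold change of 0.09, which turned to −0.07 with its 2 pseudogene rows. *RPLP2* was at 2212, 2288 and 2169 CPM and at 1743, 1753 and 1912 CPM, without overlap and with a log2 fold change of −0.30 ± 0.11 (SE; adjusted p = 0.0745, edgeR). Of the other genes with the most reads, *RPS2*, *RPL15* and *RPL19*, the fitted log2 fold changes were 0.02, 0.01 and −0.29. *RPL19* was the only one of these 3 whose groups did not overlap (adjusted p = 0.0828, edgeR). No stalk gene was called by edgeR or DESeq2, and *RPLP2* was lower at an unadjusted p-value below 0.05.

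When the 306 pseudogene rows were summed into their genes and the fit was repeated, a step chosen after the values had been seen, 2 of the 85 genes were again called lower, but not the same 2. *RPS13* was called in both fits, *RPS7* only on its gene row and *RPL36A* only in the sum. Of all genes in that fit, 2.79% were called lower and 5.13% higher, and 0 of the 85 were called higher. *RPL36A*, a large-subunit protein of the tRNA exit site, was on its gene row at 16.43, 15.32 and 16.89 CPM in ASO_CTRL and at 18.08, 19.68 and 16.81 CPM in ASO_LINC, with a log2 fold change of 0.17 (adjusted p = 0.501, edgeR). That row, which also overlaps the readthrough gene *RPL36A-HNRNPH2*, held 10.9% of the reads of the gene and its 7 pseudogene rows. The sum was at 237.4, 151.7 and 192.4 CPM in ASO_CTRL and at 97.83, 107.2 and 98.65 CPM in ASO_LINC, without overlap. Its log2 fold change was −0.94 ± 0.16 (SE), with an adjusted p-value of 0.00345 in edgeR. The pseudogene rows *RPL36AP13*, *RPL36AP21* and *RPL36AP45* were each called lower as rows of their own, at −1.60, −1.23 and −1.53. With 1 library left out, *RPL36AP45* was called in 6 of 6 fits, *RPL36AP13* in 4 (not without ASO_LINC replicate 1 or 2) and *RPL36AP21* in 3 (not without ASO_CTRL replicate 1 or 3, or ASO_LINC replicate 1). Of the 77 core genes, 60 were below 0 and 17 above after summing, the ASO_LINC libraries lay below those of ASO_CTRL for 19 and above them for 0, against 17.4% and 18.8% of all genes in that fit, and the median log2 fold change was −0.15.

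**Figure D3:**
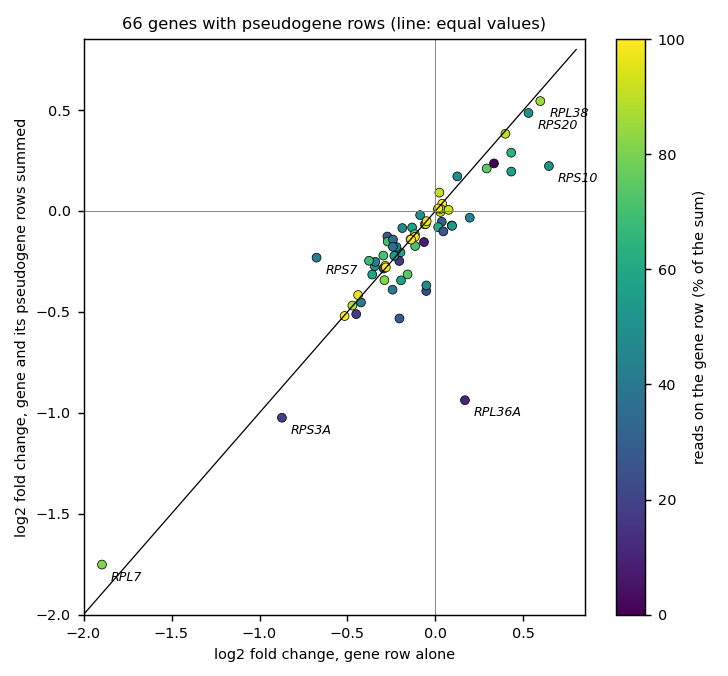
Log2 fold change of the gene row alone (x axis) and of the gene and its pseudogene rows summed (y axis) for the 66 genes with such rows, colored by the percentage of the summed reads that fell on the gene row. *RPL36A* lies far below the line of equal values (0.17 against −0.94) and *RPS7* above it (−0.68 against −0.23).

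The 8 rows with an L, L1 or AL ending had fitted log2 fold changes with a median of −0.20, of which 6 lay below 0 and 2 above. None was called by edgeR without a correction for GC content. With the GC content and length correction, edgeR called *RPS27L* and *RPL36AL* lower, with adjusted p-values of 0.00365 and 0.00756. With the replicate block added to that correction, *RPS27L* was called (adjusted p = 0.00405, edgeR) and *RPL36AL* was not. At an unadjusted p-value below 0.05 in the uncorrected edgeR fit, 2 of the 8 rows were lower and 0 higher. Of all tested genes, 15.3% and 17.1% were. DESeq2 called the same pair, *RPS27L* and *RPL36AL*, lower. *RPS27L* was at 333.7, 191 and 256.8 CPM in ASO_CTRL and at 167, 158 and 125.5 CPM in ASO_LINC. Its groups did not overlap, with a log2 fold change of −0.79 ± 0.20 (SE), an adjusted p-value of 0.0196 in edgeR and 0.00271 in DESeq2, and none of its windows occur elsewhere. *RPL36AL*, which encodes nearly the same protein as *RPL36A*, was at 1122, 763.3 and 1032 CPM and at 644.9, 686.4 and 522.2 CPM, again without overlap. Its log2 fold change was −0.65 ± 0.16 (SE), with an adjusted p-value of 0.0204 in edgeR and 0.00523 in DESeq2. *RPL7L1*, a factor of large-subunit assembly rather than a ribosomal component, and *RPL26L1* had values of −0.21 and −0.20, and *RPL39L*, best known from the male germline, and *RPL22L1* of 0.08 and 0.14, all with overlapping libraries. RefSeq gives *RPS10L* as the processed pseudogene *RPS10P5*, so this row is not a separate protein, and its log2 fold change was −0.09.

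The paralogs were then set against their core counterparts within each library, as the log2 ratio of the CPM values. A single ratio depends on the lengths of both mRNAs and on how their reads were shared with copies, so only its difference between the groups is read. All 8 pairs were compared, and with 3 libraries against 3 the exact two-sided permutation test cannot give a p-value below 0.1. After adjustment over the 8 pairs the smallest value was 0.2. The ratio of *RPS27L* to *RPS27*, a zinc-finger protein of the small subunit, was 1.62, 1.13 and 1.54 in ASO_CTRL and 0.38, 0.11 and 0.23 in ASO_LINC. It was lower in all 3 ASO_LINC libraries, by 1.19 on average (exact permutation p = 0.1, adjusted p = 0.2). The core gene *RPS27* was itself at 108.6, 87.07 and 87.95 CPM in ASO_CTRL and at 128.2, 146.5 and 107.1 CPM in ASO_LINC, which overlap by a small margin (log2 fold change 0.43, adjusted p = 0.0773, edgeR). With the 3 pseudogene rows of *RPS27* added, the ratio was 0.63, 0.38 and 0.61 in ASO_CTRL and −0.32, −0.55 and −0.43 in ASO_LINC, a difference of −0.97 with no overlap.

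The ratio of *RPL26L1* to *RPL26* was also below every control in all 3 ASO_LINC libraries. It was −1.53, −1.45 and −1.35 in ASO_CTRL and −1.99, −2.03 and −1.74 in ASO_LINC, a difference of −0.48 (exact permutation p = 0.1, adjusted p = 0.2), and of −0.40 with the pseudogene rows, still without overlap. In contrast, the ratio of *RPL36AL* to *RPL36A* differed by −0.81 on the gene rows, without overlap, and by 0.26 with the pseudogene rows, with overlap. The ratio of *RPS10L* to *RPS10* differed by −0.67 without overlap on the gene rows and by −0.29 with overlap in the sum. For *RPL22L1*, *RPL39L* and *RPL7L1* the libraries overlapped, with differences of 0.39, −0.73 and 1.23. The control libraries of *RPL39L* and *RPL7L1* were themselves spread over more than these differences, at 3.30, 0.14 and 1.67 and at −1.42, 1.78 and 0.21.

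**Figure D4:**
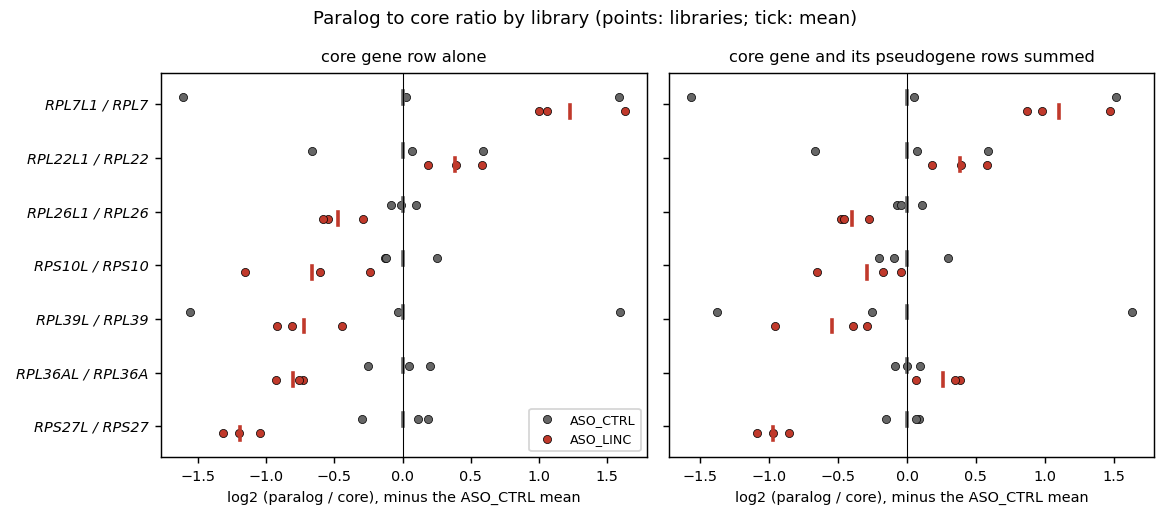
Log2 ratio of the paralogs shown to their core gene by library, minus the mean of the ASO_CTRL libraries (x axis), with the core gene row alone on the left and with its pseudogene rows added on the right; grey points are ASO_CTRL, red points ASO_LINC and ticks their means. The ratios of *RPS27L* and *RPL26L1* are below all controls in both panels, whereas that of *RPL36AL* moves from −0.81 to 0.26.

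The libraries of a group differed among themselves over these genes. Over the 77 core genes, the median absolute difference in log2 CPM was 0.096 between ASO_LINC replicates 1 and 2, with 1 gene beyond 0.5. Between replicate 3 and replicates 1 and 2 it was 0.31 and 0.30, with 22 and 25 genes beyond 0.5. In ASO_CTRL it was 0.12 to 0.29, and 22 genes differed by more than 0.5 between replicates 1 and 2. The difference of ASO_LINC replicate 3 from the mean of the other 2 moved with the GC content of the coding sequence, with a Pearson's r of 0.561 and a Spearman's rho of 0.569 across the 77 genes, given as a description of genes from the same libraries. The 18 core genes with a GC content of at least 55% had median changes from the ASO_CTRL mean of −0.26, −0.21 and 0.13 in replicates 1, 2 and 3, and the 21 under 47% had −0.09, 0.08 and −0.40. The control libraries also differed along GC content, with a Spearman's rho of −0.620 for ASO_CTRL replicate 1 and of 0.612 for replicate 2. Over all core genes, the median change was below 0 in each ASO_LINC library, at −0.16, −0.13 and −0.22. On the same scale the ASO_CTRL libraries were at 0.10, −0.086 and 0.003, so ASO_CTRL replicate 2 was also below 0. After a correction for GC content and length of the coding sequence, the ASO_LINC medians were −0.097, −0.041 and −0.21. The part of GC content in the calls was tested only through the correction for it.

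**Figure D5:**
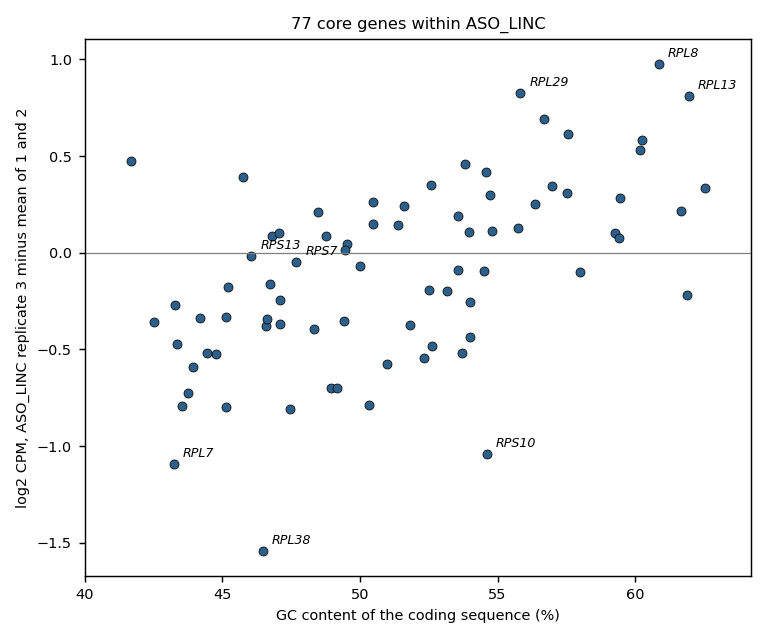
Difference in log2 CPM between ASO_LINC replicate 3 and the mean of replicates 1 and 2 (y axis) against the GC content of the coding sequence in percent (x axis) for the 77 core genes, one point each. *RPL8* and *RPL13*, among the richest in GC, were higher in replicate 3 by 0.98 and 0.81, *RPL38* was at −1.54, and *RPS13* and *RPS7* lay at −0.02 and −0.05.

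Without ASO_LINC replicate 3, which also had the fewest reads, 10 of the 85 members were called in place of 2, with 6 lower and 4 higher. Of all 15176 genes tested in that fit, 1186 were called lower and 1430 higher. *RPS13*, *RPS7*, *RPL11*, *RPS16*, *RPL8* and *RPL13* were lower, and *RPS20*, *RPS10*, *RPS27* and *RPL38* higher; *RPS16*, *RPL8* and *RPL13* are named here after their values were seen. *RPL8* was at 1263, 1436 and 1260 CPM in ASO_CTRL and at 751.9, 720.5 and 1449 CPM in ASO_LINC. *RPL13* was at 3397, 3610 and 3405 CPM and at 2237, 2134 and 3827 CPM. In both, replicate 3 was above every control and the other 2 were far below. The number of calls over all genes went from 1106 to 2616 without that library. After each library's dependence on GC content and length had been fitted and subtracted, 4 members were called lower and 2 higher. *RPS13*, *RPS7*, *RPS27L* and *RPL36AL* were the lower ones, and *RPS20* and *RPS27* the higher ones. Of all 14660 genes in that fit, 772 were called lower and 964 higher.

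Genes outside the name pattern with a related role were read from lists. *FAU*, a ribosomal protein made as a fusion with a ubiquitin-like protein, and *GNB2L1*, the scaffold protein RACK1, had log2 fold changes of −0.40 and 0.17. Neither was called by edgeR or DESeq2, and *FAU* was lower at an unadjusted p-value below 0.05. Of 19 other mRNAs with a TOP motif, 13 were below 0 (50.3% of all tested genes), with a median of −0.19. In this list 1 was called lower and 1 higher by edgeR (2.63% and 4.91% of all tested genes). DESeq2 called 2 lower and 1 higher, against 634 and 963 of all 14660 genes. At an unadjusted p-value below 0.05 in edgeR, 7 were lower and 2 higher, against 15.3% and 17.1% of all tested genes. *NACA*, a subunit of the nascent polypeptide-associated complex, fell from 1238 ± 110 to 772 ± 69.7 CPM (SD, n = 3; log2 fold change −0.68, adjusted p = 0.0044, edgeR), whereas *VIM*, which encodes the intermediate filament vimentin, rose from 2700 ± 121 to 4794 ± 895 CPM (0.83, adjusted p = 0.00363, edgeR). Of the 6 fits that leave out 1 library, only the one without ASO_LINC replicate 3 kept either call, and the adjusted p-values in edgeR reached 0.0332 for *NACA* and 0.0253 for *VIM*. *EIF4B*, an initiation factor that helps unwind mRNA, was at −0.62 (adjusted p = 0.0187, edgeR).

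Of the 9 dedicated chaperones of ribosomal proteins, none was called by edgeR or DESeq2 and 0 passed an unadjusted p-value of 0.05. Of all tested genes, 15.3% passed it lower and 17.1% higher. *RPS19BP1*, *PDCD2L* and *TSR2*, the 3 with the smallest p-values, were at −0.31, −0.25 and 0.17. Among 12 regulators of ribosomal protein synthesis, 2 were called higher and 0 lower by edgeR, against 4.91% and 2.63% of all tested genes, and 3 higher and 0 lower by DESeq2. At an unadjusted p-value below 0.05, 5 were higher and 2 lower, against 17.1% and 15.3% of all tested genes. *DDIT4* and *SESN2*, stress-induced inhibitors of mTORC1, rose from 92.6 ± 9.47 to 421.6 ± 20.2 CPM and from 69.1 ± 4.25 to 153.5 ± 24.03 CPM (SD, n = 3), with log2 fold changes of 2.19 and 1.15 and adjusted p-values of 1e-05 and 0.00056 in edgeR, and both were called in each of the 6 fits without 1 library. *MYC*, a transcription factor that drives ribosome synthesis, was at 0.57 (adjusted p = 0.0144, edgeR). *MDM2*, the ubiquitin ligase bound by several free ribosomal proteins, and its relative *MDM4* were at 0.07 and −0.09, and neither was called by edgeR or DESeq2.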

How the data were processed

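Per the labels and the study's methods, the authors sequenced single reads of 75 bases, aligned them to hg19 with STAR and used edgeR (versions not given in the sources used here), and deposited whole-number read counts per gene name, not normalized. How reads were assigned to genes (tool, annotation, strand, reads with several matches) is not given in the sources used here. Rows of reads on no gene (24.8% to 28.1%) were left out. The fit used edgeR 4.0.16 in R 4.3.3: filterByExpr (14660 genes), TMM scaling, quasi-likelihood F-test, no replicate block, Benjamini-Hochberg adjustment, and calls at an adjusted p-value below 0.01 with a log2 fold change beyond 0.5, the methods' thresholds. Changes of single libraries and paralog ratios use log2 CPM with a prior count of 2. Copies are exact matches of 75-base windows of the transcript, up to 100 bases past the stop codon, elsewhere in GRCh37. Starts, GC content and positions came from GENCODE v44 lifted to GRCh37 (13017 rows matched by name, 960 by a RefSeq synonym). Libraries of a group differed by more than sampling noise (chi-square per degree of freedom 2.50 to 14.0).

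The named genes were the called members, every paralog and its core gene, the 5 highest and 5 lowest core genes, the 5 with most reads, 10 chosen for their roles, the stalk, and the called genes and the 3 smallest p-values of each list; exceptions are stated. Members, lists and this rule were chosen with earlier results of these data known. In simulated data with 194 of 14423 genes changed, the test called 58 of 97 genes with a log2 change of 1 and 94 of 97 with one of 2, and 3 unchanged genes. Deviations of same-numbered libraries from their group means had correlations of 0.059, −0.149 and −0.180 over genes. With 3 replicate numbers these values cannot decide whether the libraries were made in pairs, so the block was kept as an alternative. The alternatives were DESeq2 1.42.0, limma-voom (limma 3.58.1), other scalings, filters and thresholds, glmTreat, robust dispersion, GC content and length correction, a replicate block and leaving out each library. The coding-sequence version of the correction, the sums with pseudogene rows and medians without copied or misnamed members were added after seeing the data. Values of some members and list genes, and 1 paralog ratio, are not reported here, while counts and medians over groups include them.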

Additional observations from a re-analysis of the deposited data

How the results depend on the processing

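The number of ribosomal protein genes called was 2, against 1106 over all genes. It was 5 with DESeq2 (1597 over all genes). With the GC content and length correction it was 6 (1736 over all genes), and with the coding-sequence version 5 (1607 over all genes). At an adjusted p-value below 0.05 it was 6 (2465 over all genes). With glmTreat it was 0 (384 over all genes), while at an unadjusted p-value below 0.05 the quasi-likelihood test had 19 lower and 3 higher. With the replicate block it was 1 (656 over all genes). Whether same-numbered libraries were made together is not known. Under the block *RPS7* had an adjusted p-value of 0.0129 in edgeR, so its call was lost, and *RPS13* had one of 0.00135. Leaving out 1 library at a time gave from 1 call (omitting replicate 1 or 3 of ASO_CTRL, or 1 or 2 of ASO_LINC) to 10 (without ASO_LINC replicate 3), and from 359 (without ASO_CTRL replicate 3) to 2616 over all genes. *RPS13* was called under every alternative other than glmTreat.

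The median of the core genes stayed below 0 under all alternatives: it was −0.093 with the GC content and length correction, −0.058 with that correction and the replicate block (all genes −0.03 in both), −0.19 without the members with at least 50% of windows copied, and −0.19 to −0.066 when 1 library was left out. The share of reads on core genes differed by −0.92 to −0.68 percentage points without 1 library. The ratio of *RPL36AL* to *RPL36A* turned to 0.26 with pseudogene rows added, and leaving out 1 library gave −1.51 to 0.071 for *RPL39L* to *RPL39*.

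Single genes that changed sign, on the log2 scale, were *RPL15*, −0.036, *RPL23*, −0.032, *RPL5*, 0.023, and *RPS10L*, 0.044, with the GC content and length correction; with the replicate block added to it these were −0.039, −0.043, 0.026 and 0.014. *RPS2* was −0.00096 with the coding-sequence correction, and *RPL15* and *RPS2* were −0.0048 and −0.0071 with upper-quartile scaling. With pseudogene rows added, *RPL23* was −0.0051, *RPL36A* −0.94, *RPLP0* −0.073, *RPS19* −0.033, *RPS2* −0.080 and *RPSA* −0.10. Without 1 library the ranges that crossed 0 were −0.21 to 0.020 for *RPL10*, −0.079 to 0.15 for *RPL15*, −0.36 to 0.032 for *RPL22*, −0.17 to 0.55 for *RPL22L1*, −0.11 to 0.23 for *RPL23*, −0.042 to 1.43 for *RPL39*, −0.17 to 0.052 for *RPL5*, −0.24 to 0.087 for *RPS10L*, −0.059 to 0.094 for *RPS2*, −0.36 to 0.23 for *RPS27A*, −0.093 to 0.19 for *RPS3* and −0.081 to 0.13 for *RPSA*; none of these genes was called. Over all alternatives and named genes, 759 values kept their sign and their side of the threshold, 20 kept their sign and gained a call, 9 lost one and 40 changed sign. The causes of these changes were not tested. Members under 100 reads in a library, such as *RPL17*, *RPL39*, *RPL36A* and *RPS10L*, have the least precise values.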

Other observations

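Of 255 rows named after pseudogenes of these genes with enough reads, 10 were called lower and 2 higher by edgeR, against 2.63% and 4.91% of all tested genes, with a median log2 fold change of −0.16 and 171 below 0. Besides the 3 *RPL36A* rows, 3 rows of *RPL5* were called lower, *RPL5P4*, *RPL5P34* and *RPL5P28*, with log2 fold changes of −0.81, −0.78 and −1.27, whereas the *RPL5* row had a log2 fold change of −0.05. The other 4 called lower were *RPL18P13*, *RPS26P6*, *RPS3AP25* and *RPS27P27*, at −0.85, −0.70, −1.62 and −1.38. Rows of the same gene could move apart: *RPS27P27* fell from 50.1 ± 22.3 to 19.2 ± 2.74 CPM (SD, n = 3) and *RPS27P29* rose from 31.3 ± 1.67 to 55.5 ± 12.2 CPM, with adjusted p-values of 0.00877 and 0.0085 in edgeR. The second row called higher was *RPL7AP14*, from 2.08 ± 0.577 to 5.18 ± 0.217 CPM. Outside *RPL36A*, the called rows were called in 1 or 2 of the 6 fits that leave out 1 library: all without ASO_LINC replicate 3, and *RPL5P4*, *RPL5P34*, *RPL5P28*, *RPS27P27* and *RPS3AP25* also without ASO_CTRL replicate 2. These rows were chosen after their values were seen, and whether their reads came from the pseudogenes or from mRNAs of the genes was not tested.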
